A study of Mus musculus with 6 samples.

Results

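Heat shock proteins and their partners, the chaperones that fold and refold proteins in the cytosol and the mitochondria, were followed by RNA sequencing in RM-1, a line of mouse prostate cancer cells. The members were taken by name: protein-coding genes of the HSP90, HSP70, HSP60 and HSP10, CCT, small heat shock, J-domain, BAG and heat shock factor families, without the chaperones Hspa5, Hspa13, Dnajb9, Dnajb11, Dnajc3 and Dnajc10 of the secretory pathway. This gave 87 of the 55487 genes in the deposited table, of which 70 had enough counts to be tested. The cells carried either a lentivirus for overexpression of Bhlhe22, a basic helix-loop-helix transcription factor (Bhlhe22 cells), or, as control, an empty lentivirus (vector cells), and each group had 3 libraries. All were kept under the same culture conditions, and the labels name no further treatment. They do not say whether replicates were separate cultures or infections, so p-values measure a spread between libraries that may be technical.

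Cytosolic HSP70 binds exposed stretches of unfolded proteins in a cycle driven by ATP. J-domain proteins bring clients to HSP70 and stimulate its ATPase, and nucleotide exchange factors, among them Hsph1 and several BAG proteins, reopen it. Co-chaperones pass clients on to HSP90, which matures kinases and steroid receptors. Mitochondria hold their own HSP70, Hspa9, and the chaperonin Hspd1 with its lid Hspe1, while CCT is the chaperonin of the cytosol. The heat shock factor Hsf1 turns on many of the cytosolic genes when unfolded protein accumulates, and tumour cells often depend on this system. The names do not all stand for cytosolic or mitochondrial chaperones. Dnajb12, Dnajb14 and Dnajc1 sit in the membrane of the endoplasmic reticulum, Hspb11 is a subunit of the ciliary transport machinery, and Hsf2bp is a meiotic recombination factor.

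The counts summed to between 15464709 and 25129552 per library. Bhlhe22 had 0 CPM (counts scaled to library size by TMM) in the 3 vector libraries and 572 to 764 CPM in the Bhlhe22 libraries, as labelled. Bhlhe22 replicate 1 stood apart from the other libraries of its group (Pearson r of log2 CPM across tested genes 0.982 and 0.9848, against 0.9917 between Bhlhe22 replicates 2 and 3 and 0.9927 to 0.9928 among vector libraries), so the members called without it are also given. Of the epithelial and luminal markers, the keratin genes Krt8 and Krt18 had 757 and 665 CPM in vector cells and Epcam 3.99, while Cdh1 had 0.181 CPM. The leukocyte genes Ptprc and Cd3e and the endothelial Pecam1 had means of at most 0.441 CPM in both groups, Cdh5 had 3.26 and the macrophage marker Cd68 40.9 CPM in vector cells. The proliferation markers Mki67 (log2 fold change -0.94) and Top2a (-0.78) were lower in Bhlhe22 cells. So were Krt8 (-0.47, edgeR adjusted p = 0.005), while Krt18 had -0.00, and the mesenchymal Vim (-0.33, 0.023), which was not called without any 1 library other than Bhlhe22 replicate 1 (0.065 to 0.107). Neither of the other mesenchymal markers was called by edgeR, and their log2 fold changes lay on opposite sides of 0. The part of these markers in the differences below was not tested.

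The chaperone genes did not move as a block. In Bhlhe22 cells 8 members were lower and 5 were higher, while 57 of the 70 did not pass the test (edgeR quasi-likelihood test, Benjamini-Hochberg adjusted p of at most 0.05 over all genes tested). That is 18.6% of the tested members, against 19.6% of all 14663 tested genes and 22.2% of tested protein-coding genes, so the share was near the background. By direction, 11.4% of the members were lower and 7.14% higher, against 9.28% and 10.4% of all genes. The median log2 fold change was 0.02 over the members and 0.01 over all genes, and 44 members lay within 1.2-fold. The values of the 2 groups did not overlap in 27 members, or 38.6%, against 40.8% of all tested genes. The firmest changes were in single genes. The chaperone Hspa8, its exchange factor Hsph1 and the small heat shock gene Hspb1 fell, and the mitochondrial Hspa9 and the J-domain genes Dnaja3 and Dnaja4 rose. These 6 kept their calls when each library in turn was left out. In GRCm38, Hspa8 (ENSMUSG00000015656) lies on chromosome 9 from 40800984 to 40810087 on the plus strand, Hsph1 (ENSMUSG00000029657) on chromosome 5 from 149614287 to 149636376 on the minus strand and Hspb1 (ENSMUSG00000004951) on chromosome 5 from 135887919 to 135889563 on the plus strand. Hspa9 (ENSMUSG00000024359) lies on chromosome 18 from 34937414 to 34954357 on the minus strand, Dnaja3 (ENSMUSG00000004069) on chromosome 16 from 4639989 to 4707695 and Dnaja4 (ENSMUSG00000032285) on chromosome 9 from 54698873 to 54716315, both on the plus strand.

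**Figure D1:**
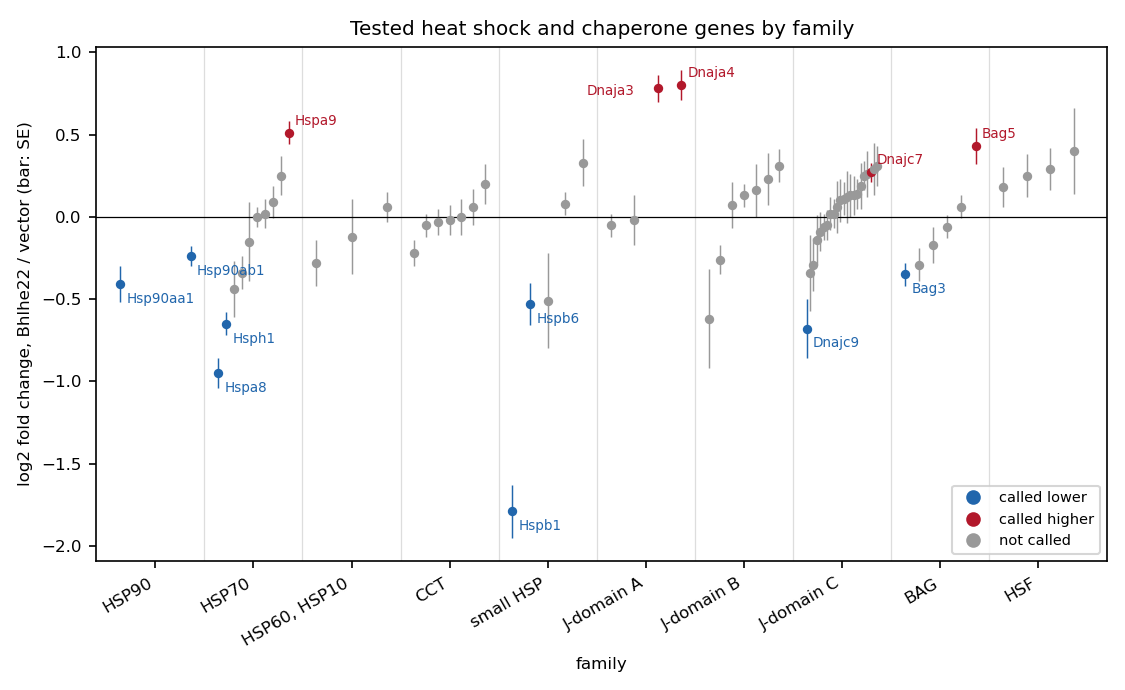
Log2 fold change of Bhlhe22 over vector cells for the 70 tested members, grouped by family along the horizontal axis and sorted within it. Points are edgeR estimates and bars their standard errors, with lower calls in blue, higher calls in red and the rest in grey. Most points lie near 0, Hspb1 lies lowest at -1.79 and Dnaja4 highest at 0.80.

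The heat shock factors Hsf1, Hsf2 and Hsf4, which bind the promoters of chaperone genes, and the meiotic Hsf2bp had log2 fold changes above 0. Of these 4 tested genes 0 were called by edgeR or DESeq2, and 0 had an unadjusted edgeR p under 0.05. Hsf1 had 31.3, 34.7 and 36.7 CPM in vector replicates 1, 2 and 3 and 48.0, 36.8 and 37.5 CPM in Bhlhe22 replicates 1, 2 and 3 (log2 fold change 0.25, SE 0.13, edgeR adjusted p = 0.215). These groups did not overlap, but the highest vector and the lowest Bhlhe22 library were nearly level, and without Bhlhe22 replicate 1 the log2 fold change was 0.11. Hsf2 (0.18), Hsf4 (0.29) and Hsf2bp (0.40) were likewise not called. Hsf3 had 0 counts in all libraries, and Hsf5 had at most 8.

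Both cytosolic HSP90 genes fell. Hsp90ab1, the constitutive form and the most abundant member, had 4707, 4846 and 4817 CPM in the vector libraries and 4109, 3949 and 4088 CPM in the Bhlhe22 libraries (log2 fold change -0.24, SE 0.06, edgeR adjusted p = 0.034). Its stress-inducible relative Hsp90aa1 had 848, 853 and 885 CPM against 679.5, 715 and 549 CPM (log2 fold change of -0.41 with an SE of 0.11, edgeR adjusted p = 0.033). For each gene every Bhlhe22 library lay below every vector library, the inducible form being lowest in Bhlhe22 replicate 3. Both calls were near the threshold. Hsp90ab1 was not called without any 1 library other than Bhlhe22 replicate 1 (edgeR adjusted p from 0.073 to 0.140), and Hsp90aa1 was not called without any 1 vector replicate (0.099 to 0.117).

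Within the HSP70 family 2 of 10 tested members were lower, 1 was higher and 7 were not called, and the cytosolic Hspa8 and the mitochondrial Hspa9 went opposite ways. Hspa8, the constitutive cytosolic HSP70, had 815, 803 and 806 CPM in vector cells and 473, 378 and 404 CPM in Bhlhe22 cells (log2 fold change -0.95, SE 0.09, edgeR adjusted p = 8.9e-04). It was 1.93-fold lower, with vector libraries that hardly differed among themselves. Hsph1, the large HSP70 relative that serves it as a nucleotide exchange factor, had 182, 170.1 and 179.9 CPM against 116, 113 and 109.5 CPM (log2 fold change of -0.65 with an SE of 0.07, edgeR adjusted p = 9.2e-04). Hspa9, the HSP70 that pulls proteins into the mitochondrial matrix and folds them there, had 982, 1015 and 980.2 CPM in vector cells. In Bhlhe22 cells it had 1499, 1364 and 1369 CPM (log2 fold change of 0.51 with an SE of 0.07, edgeR adjusted p = 0.003), above every vector library. Hspa4, a second exchange factor of the Hsph1 type, was level at 821 ± 26.3 and 819.7 ± 21.0 CPM (SD, n = 3; log2 fold change -0.00, SE 0.06).

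Of the other HSP70 genes, Hspa1b, which heat strongly induces, had 6.91 ± 0.857 and 5.11 ± 0.816 CPM (SD, n = 3; log2 fold change -0.44, SE 0.17, edgeR adjusted p = 0.109). Its near-identical neighbour Hspa1a had 3 to 14 counts per library and was left out by the filter on low counts, and since reads of such copies can be split between them, both values are uncertain. Hspa1l, also in that cluster, overlaps a gene of the opposite strand over 71.9% of its exons and is uncertain too. Hspa12b, a distant relative expressed in endothelium, had 13.4 ± 0.0612 against 10.6 ± 0.771 CPM (SD, n = 3; log2 fold change -0.34, edgeR adjusted p = 0.052). Hspa4l, Hspa14 and Hspa2 had log2 fold changes of 0.09, 0.02 and 0.25 and were not called.

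J-domain genes of class A split into a pair that rose and a pair that did not pass the test. Dnaja3, the J-domain partner of Hspa9 in mitochondria, had 75.0, 76.6 and 72.7 CPM in vector cells and 139.9, 122 and 124 CPM in Bhlhe22 cells (log2 fold change 0.78, SE 0.08, edgeR adjusted p = 9.1e-04). Dnaja4, a cytosolic form, had 15, 16.4 and 15.8 CPM against 29.0, 26.6 and 26.8 CPM (log2 fold change of 0.80 with an SE of 0.09, edgeR adjusted p = 0.001). In both genes the lowest Bhlhe22 library was above the highest vector library by more than either group's spread. The exons of Dnaja4 overlap a gene of the opposite strand over 44.1% of their length, and no source used here says whether counting was by strand, so its level is less certain. The general cytosolic co-chaperones Dnaja1 (-0.02, SE 0.15) and Dnaja2 (-0.05, SE 0.07) had log2 fold changes near 0.

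None of the 7 tested class B genes was called by edgeR or by DESeq2, and 2, Dnajb1 and Dnajb5, had an unadjusted edgeR p under 0.05. Dnajb1, a partner of HSP70 that heat induces, had 47.3, 45.5 and 49.6 CPM against 43.8, 38.3 and 37.2 CPM (log2 fold change of -0.26 with an SE of 0.09, edgeR adjusted p = 0.094), lower in each Bhlhe22 library than in any vector library. Dnajb4 varied most, with 42.8, 39.9 and 43.7 CPM in vector cells and 16.4, 23.9 and 41.2 CPM in Bhlhe22 cells (log2 fold change -0.62, SE 0.30, edgeR adjusted p = 0.194). Bhlhe22 replicate 3 lay within the vector range, and without that library the gene was called (log2 fold change -1.06, edgeR adjusted p = 0.010). The other members of the class ran from 0.07 for Dnajb14 to 0.31 for Dnajb5 in log2 fold change.

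Class C, whose members share only the J domain and serve many tasks, had 1 higher and 1 lower gene among 22 tested. Dnajc7, which binds HSP70 and HSP90 through its TPR repeats, had 89.7, 90.0 and 90.3 CPM against 109.8, 108 and 108 CPM (log2 fold change of 0.27 with an SE of 0.06, edgeR adjusted p = 0.020). The change was small and the spread within each group smaller. Dnajc9, a co-chaperone of histones, had 31.6, 29.3 and 32.7 CPM against 25.6, 17.5 and 15.6 CPM (log2 fold change of -0.68 with an SE of 0.18, edgeR adjusted p = 0.040). Neither was called without any 1 library other than Bhlhe22 replicate 1, the edgeR adjusted p running from 0.051 to 0.097 for Dnajc7 and from 0.084 to 0.129 for Dnajc9. The other 20 lay between -0.34 (Dnajc22) and 0.31 (Dnajc21, a factor of ribosome assembly).

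The BAG family, several members of which release nucleotide from HSP70, held 1 lower and 1 higher gene among 6. Bag3, which links HSP70 and small heat shock proteins to autophagy, had 116, 122 and 121 CPM against 88.2, 94.6 and 98.5 CPM (log2 fold change of -0.35 with an SE of 0.07, edgeR adjusted p = 0.014). Bag5 had 49.8, 47.1 and 46.8 CPM against 73.3, 63.8 and 56.6 CPM (log2 fold change of 0.43 with an SE of 0.11, edgeR adjusted p = 0.030). The groups did not overlap in either gene. Both lost the call without any 1 vector replicate or without Bhlhe22 replicate 2, with an edgeR adjusted p from 0.055 to 0.070 for Bag3 and from 0.081 to 0.110 for Bag5. Bag1 (-0.29, adjusted p = 0.083 by edgeR), Bag4 (-0.17), Bag6 (-0.06) and Bag2 (0.06) were not called.

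The largest change of any member was in a small heat shock gene. Hspb1, whose product protects actin filaments and holds unfolded proteins without using ATP, had 6.43, 6.80 and 6.36 CPM in vector cells, from 116, 140 and 136 counts. In Bhlhe22 cells it had 2.23, 1.86 and 1.63 CPM, from 34, 36 and 41 counts (log2 fold change -1.79, SE 0.16, edgeR adjusted p = 6.4e-04). This was 3.45-fold lower, and the highest Bhlhe22 library was far below the lowest vector library. Hspb6 had 20.2, 20.9 and 21.1 CPM against 17.0, 12.4 and 13.8 CPM (log2 fold change of -0.53 with an SE of 0.13, edgeR adjusted p = 0.027), but was not called without any 1 library other than Bhlhe22 replicate 1 (0.073 to 0.094). Hspb8, the partner of Bag3 and per length the most abundant small heat shock gene here (70.3 ± 2.03 FPKM in vector cells), had 175 ± 5.22 and 184 ± 10.5 CPM (SD, n = 3; log2 fold change 0.08, SE 0.07, edgeR adjusted p = 0.502). Hspb7 (-0.51) and Hspb11 (0.33) were not called.

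**Figure D2:**
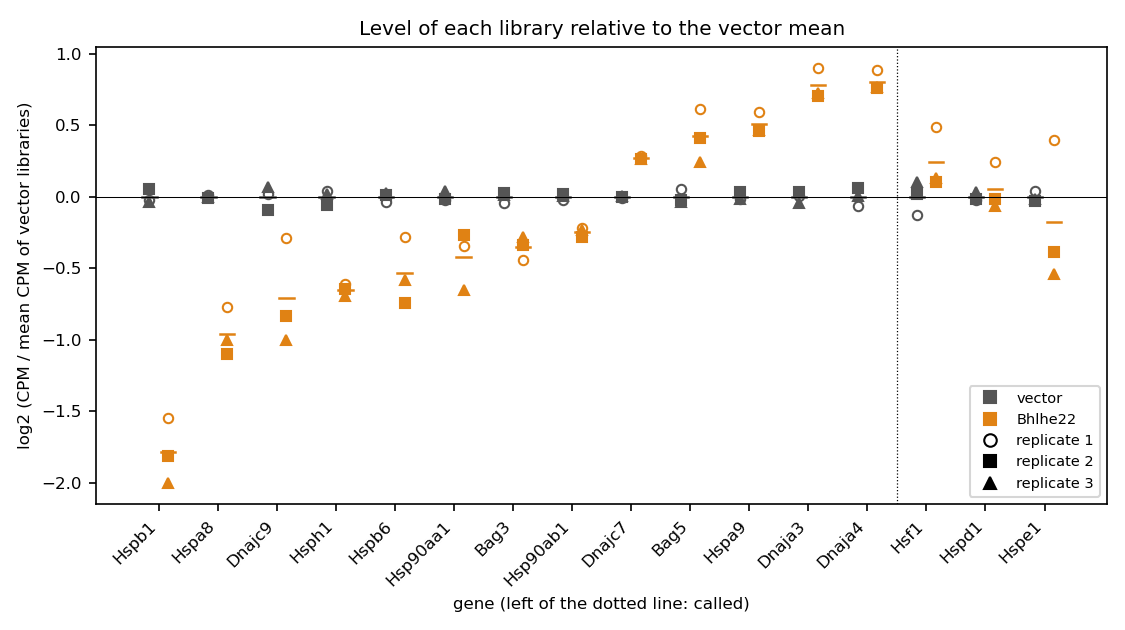
Level of each library as log2 of its CPM over the mean CPM of the vector libraries, for the 13 called members and, right of the dotted line, for Hsf1, Hspd1 and Hspe1. Grey marks are vector and orange marks Bhlhe22 libraries, the marker shape gives the replicate and short lines are means of the plotted values. The groups do not overlap in any called gene, and Bhlhe22 replicate 1 lies above the other Bhlhe22 libraries in Hsf1, Hspd1 and Hspe1.

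No subunit gene of either chaperonin passed the test in the fit of all libraries. In the cytosolic CCT ring 0 of the 7 tested subunit genes were called by edgeR, and their log2 fold changes ran from -0.22 (Cct3) to 0.20 (Cct4). At an unadjusted p under 0.05 there was 1, Cct3, and DESeq2 called 0. The ring subunit Tcp1, whose name is outside the rule, had -0.16 (edgeR adjusted p = 0.203). The mitochondrial chaperonin Hspd1 had 662, 665 and 690 CPM against 794, 665 and 644 CPM (log2 fold change of 0.06 with an SE of 0.09, edgeR adjusted p = 0.706). Its lid Hspe1 had 144, 137 and 138 CPM against 184, 107 and 96.2 CPM (log2 fold change of -0.12 with an SE of 0.23, edgeR adjusted p = 0.775). For the lid gene Bhlhe22 replicate 1 was above every vector library and replicates 2 and 3 were below all of them.

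Leaving out that library changed the picture of several families. Without Bhlhe22 replicate 1, 22 of 73 tested members were called (30.1%), near the 31.3% of all genes tested in that fit. Of these 22, 15 were lower and 7 higher, and the 13 called with all libraries were among them. The split by direction over all genes was not counted in that fit. Its median log2 fold change was -0.03 over the members and -0.009 over all genes. The log2 fold change of Dnajc9 was then -0.92, that of Hspb6 -0.67 and that of Bag5 0.32. Among the 7 further lower genes were Hspe1 (log2 fold change -0.47, edgeR adjusted p = 8.6e-04), Bag1 (-0.41), Cct3 (-0.29), Dnajb1 (-0.34), Hspa1b (-0.58) and Hspa12b (-0.35). The 2 further higher genes were Hspa4l (0.18) and Dnajb14 (0.22). The members called numbered 6 of 70, 6 of 73 and 6 of 72 without vector replicates 1, 2 and 3, where 9.05%, 9.77% and 9.93% of all genes were called. Without Bhlhe22 replicates 2 and 3 they numbered 7 and 10 of 72, where 11.4% and 14.9% of all genes were called.

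**Figure D3:**
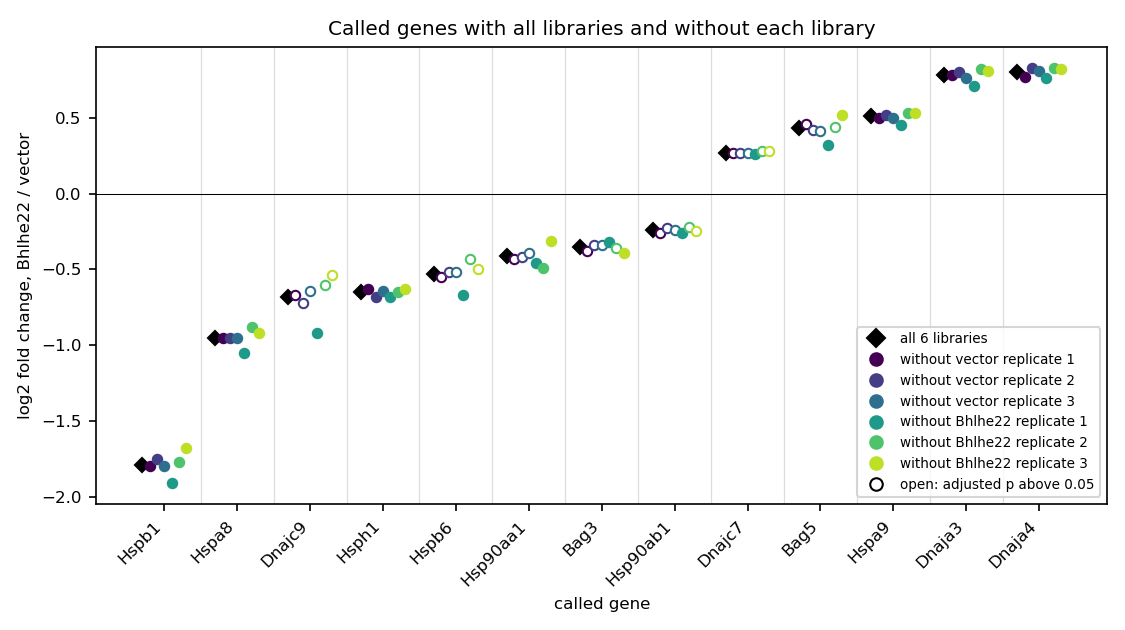
Log2 fold change of the 13 called members with all 6 libraries (diamonds) and without each library (circles). Filled marks have an edgeR adjusted p of at most 0.05 and open marks do not, and Hspb1, Hspa8, Hsph1, Hspa9, Dnaja3 and Dnaja4 are filled throughout.

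The higher members Hspa9 and Dnaja3 act in mitochondria, and the members known from there were therefore looked at together, a grouping made after their values were seen. Of 8 such members the 2 that prompted the grouping rose, which is therefore no support for it, and 10.4% of all tested genes were called higher. The other 6 were not called, and the median log2 fold change of the 8 was 0.16. The 6 were Hspd1, Hspe1, Dnajc11 (0.02), Dnajc15 (0.06), Dnajc19 (0.29) and Dnajc30 (0.26). Among the 38 partner genes outside the rule (co-chaperones, prefoldins, and mitochondrial chaperones and proteases), 3 rose, 4 fell and 31 were not called by edgeR, at a median log2 fold change of -0.00. The share called was 18.4% (7.89% higher and 10.5% lower), near the 19.6% of all tested genes (10.4% and 9.28%). All 3 that rose encode mitochondrial proteins, as do 9 of the 38, of which 6 were not called. The list was picked with earlier results of these data known and includes mitochondrial genes by design, so this is no support for the grouping. Lonp1, the ATP-driven protease of the matrix, had 304, 292 and 307 CPM against 875, 799 and 767 CPM (log2 fold change of 1.43 with an SE of 0.08, edgeR adjusted p = 8.4e-05), a 2.70-fold increase larger than that of any member. Clpb, the mitochondrial disaggregase, had 70.9, 81.8 and 68.1 CPM against 126, 115 and 142 CPM (log2 fold change of 0.80 with an SE of 0.11, edgeR adjusted p = 0.003). Grpel2, an exchange factor of Hspa9, had a log2 fold change of 0.40 (edgeR adjusted p = 0.040) and lost its call without any 1 library other than Bhlhe22 replicate 1 (0.063 to 0.140), while its relative Grpel1 had 0.15 (0.491). The protease subunits Clpp (0.39, edgeR adjusted p = 0.054) and Clpx (0.15), the mitochondrial HSP90 gene Trap1 (0.12) and the protease Htra2 (-0.11) were not called by edgeR. The exons of Htra2 overlap a gene of the opposite strand over 43.7% of their length, so its level is less certain. A difference between mitochondrial and cytosolic genes was not tested.

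The 4 partner genes that fell serve cytosolic HSP90 and HSP70, and the changes were small. Stip1, the adaptor that joins HSP70 to HSP90, had 445, 427 and 431 CPM against 393, 329.6 and 334 CPM (log2 fold change of -0.30 with an SE of 0.09, edgeR adjusted p = 0.047). St13, which steadies the client-bound form of HSP70, had a log2 fold change of -0.28, the HSP90-bound phosphatase gene Ppp5c of -0.32 and the immunophilin gene Fkbp5 of -0.25 (edgeR adjusted p = 0.045, 0.016 and 0.037). In each of the 4 all Bhlhe22 libraries lay below all vector libraries. The groups did not overlap, in either direction, in 15 of the 38 partner genes and in 40.8% of all tested genes. None of the 4 was called without any 1 library other than Bhlhe22 replicate 1 (edgeR adjusted p from 0.051 to 0.153). Of the 14 HSP90 partners 7 had log2 fold changes below 0 and 7 above. Those not called by edgeR included Ahsa1 (-0.40), Cdc37 (-0.20), Ptges3 (-0.04), Fkbp4 (0.01), Ppid (0.22), Sugt1 (0.22) and Unc45a (0.23). The small heat shock gene Cryab had the lowest log2 fold change of the list, with 9.25, 6.70 and 10.7 CPM against 6.83, 4.03 and 4.30 CPM (-0.82 with an SE of 0.25, edgeR adjusted p = 0.062). Its groups overlapped. Besides the 7 genes called by edgeR, DESeq2 called Ahsa1, Cryab, Ppid and Clpp. The 6 prefoldin genes (-0.11 to 0.16) were called by neither, and 0 had an unadjusted edgeR p under 0.05. The list's count of called genes went from 7 to 17 without Bhlhe22 replicate 1 and to 2 without any 1 other library.

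Per length, on the FPKM scale that the authors deposited, Hsp90ab1 stood well above all other members in vector cells, at 833 ± 13.5 FPKM (SD, n = 3). Next came Hspd1 (244 ± 5.58), Hspa9 (181 ± 3.65), Cct5 (165 ± 13.9), Cct2 (148 ± 5.38), Hspa4 (135 ± 4.39) and Hsp90aa1 (132 ± 3.10). The ranges of neighbours in this order overlapped over the 3 vector libraries for Cct5 and Cct2 and for Hspa4 and Hsp90aa1, and did not overlap for the others. Hspa8 was at 88.0 ± 0.62 FPKM in vector cells and 44.9 ± 5.04 FPKM in Bhlhe22 cells, while Hspa9 was at 254 ± 12.2 FPKM in the latter. The order between genes depends on the length assigned to each, which was not checked. In CPM the vector means were 808 for Hspa8 and 672 for Hspd1, the reverse of their order in FPKM. Summed over its members, the HSP90 family had 948, 975 and 974 FPKM in vector cells and 801, 784 and 789 FPKM in Bhlhe22 cells, with no overlap. Most of this sum was Hsp90ab1 (833 of a mean of 965 FPKM in vector cells), whose call was near the threshold. The CCT sum was 664, 651 and 648 FPKM against 721, 621 and 598 FPKM, so that Bhlhe22 replicate 1 lay above and the other Bhlhe22 libraries below every vector library. The sum over all members was 2942, 2948 and 2945 FPKM against 2955, 2691 and 2660 FPKM, with the same order of libraries. Fewer cells with a transcript and less RNA per cell cannot be told apart in such bulk samples.

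**Figure D4:**
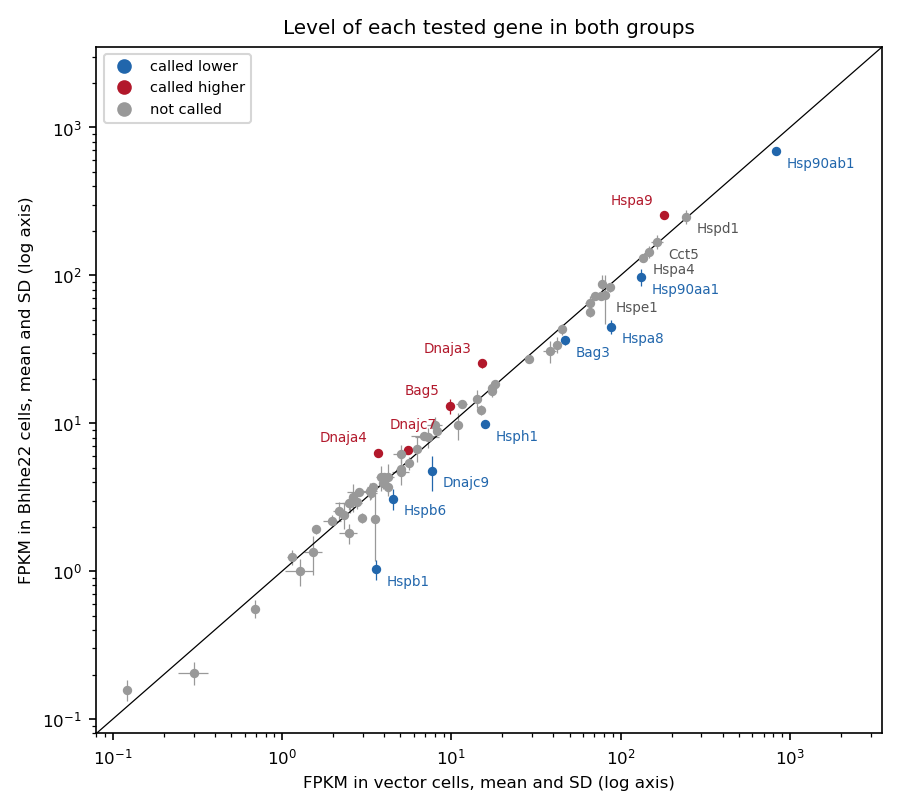
Mean FPKM in vector cells (horizontal, log axis) against mean FPKM in Bhlhe22 cells (vertical, log axis) for the 70 tested members, with SD over 3 libraries as bars and the line of equal levels. Hsp90ab1 lies at the upper end just below the line, and Hspa8 and Hspb1 lie farther below it at high and low levels.

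The 17 members that were not tested had at most 19 counts in any library, and 7 of them (Hspa12a, Hsf3, Dnajb3, Dnajb8, Dnajb13, Dnajc5g and Hspb3) had 0 counts in all 6. Several members have processed pseudogenes that take similar reads. Hspd1-ps3 held 2822 to 4591 counts per library, or 21.3% of the counts of Hspd1 and this copy together, with a log2 fold change of -0.01. Dnajb6-ps held 22.7% and Dnajc19-ps 27.6% of the counts shared with Dnajb6 and Dnajc19, with log2 fold changes of -0.03 and -0.00. The values of these parents and copies are uncertain, since reads could have been assigned to either.

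The secretory chaperones that the rule leaves out are set here beside the members. Dnajb9 (log2 fold change 1.15, edgeR adjusted p = 2.4e-04) and Hyou1 (0.38, 0.044, and not called without any 1 library other than Bhlhe22 replicate 1, edgeR adjusted p from 0.068 to 0.147) rose, and Hspa5 (0.59, 0.159), Hsp90b1 (0.00), Dnajb11 (0.07), Dnajc3 (0.09) and Dnajc10 (0.04) were not called.

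Heat shock factors bind inverted repeats of the unit GAA, and the promoters of the members were searched for them to show which carry the element. Promoter sequences were RefSeq's, from 250 bases before to 50 after each annotated start in GRCm38.p6, and 69 of the 87 members had one. Members without an entry included Hsp90aa1, Hsp90ab1, Hspa8, Hspa9, Hsf1, Hsf4, Hspb2, Cct4, Bag4, Dnajc2, Dnajc5, Dnajc5b, Dnajc11, Dnajc12, Dnajc18, Dnajc22 and Dnajc30. An element of 3 units, GAA and its inverse TTC alternating with any 2 bases between neighbours and searched on both strands, was in 4 members (5.80%), against 0.662% of all 27025 genes with a promoter in the table, counting any promoter of a gene, and 0.603% of all 32851 promoters. These were Hspd1 and Hspe1, which lie head to head on chromosome 1 and share the element, Hsph1 and Dnajb6. They are shown 5′ to 3′ on the strand of the gene, with the element in capitals. Hspd1 and Hspe1 show the same stretch, chr1:55088058-55088082, on the minus and the plus strand. A second match of 3 units, within chr1:55088053-55088077, overlaps the one in capitals, and its other bases are left in lower case. The stretch for Hsph1 is chr5:149636282-149636306 on the minus strand and begins its element 36 or 15 bases after the start, depending on the start. The stretch for Dnajb6 is chr5:29735846-29735870 on the plus strand.
Hspd1: ggggccTTCCGGAAGGTTCtagaac
Hspe1: gttctaGAACCTTCCGGAAggcccc
Hsph1: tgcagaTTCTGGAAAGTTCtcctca
Dnajb6: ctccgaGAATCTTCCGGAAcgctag
Of these only Hsph1 was called in the fit of all libraries. The other 3 had log2 fold changes of 0.06 (Hspd1), -0.12 (Hspe1) and 0.13 (Dnajb6), each without passing the test. Without Bhlhe22 replicate 1, Hspe1 was called lower as well (-0.47, edgeR adjusted p = 8.6e-04). The values of Hspd1 and Dnajb6 are uncertain because of their pseudogenes.

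The shorter element of 2 units, GAANNTTC or TTCNNGAA on either strand, which is also contained in the longer one, was in 21 of the 69 members (30.4%), against 17% of all genes by the same count and 15.1% of all promoters. Of the 5 lower members with a promoter it was in 4 (Hsph1, Hspb1, Hspb6 and Bag3, not Dnajc9). Of the 4 higher members with one it was in 1, Dnaja4. It was also in 11 of the 45 members that did not pass the test and in 5 of the 15 that were not tested. The Hspb1 promoter held it at 117 and 97 bases before the start, within chr5:135887796-135887815 and chr5:135887816-135887835 on the plus strand. Hspb6 held it 120 bases before the downstream one of its 2 starts in the table and not at the other, within chr7:30553175-30553194, and Bag3 42 bases after it, within chr7:128523613-128523632, both on the plus strand. Dnaja4 held it at 90 and 52 bases before the downstream one of its 2 starts, the first within chr9:54699463-54699482 on the plus strand.
Hspb1, first: acaagaGAAGTTTCcagatg
Hspb1, second: ggggcaGAACCTTCctggcc
Hspb6: attattGAAGTTTCtaaata
Bag3: tggatgggaccaGAAGTTTC
Dnaja4, first: ctccgcGAACGTTCtgggcc
Members with these letters thus rose, fell or did not pass the test. A match describes the sequence and is not a site of binding.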

How the data were processed

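RNA-seq of 6 RM-1 libraries was used, 3 with Bhlhe22 lentivirus and 3 with blank vector. The authors deposited raw counts per gene, and FPKM values scaled by gene length and library. CASAVA 1.8, HISAT2 2.1.0, StringTie 1.3.4b, edgeR and the build GRCm38 are named per the submitters' processing notes, without their roles. The annotation release, filters and strand setting are not stated in the sources used.

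Counts were tested with edgeR 4.0.16 in R 4.3.3 (TMM, filterByExpr with a minimum count of 10 and total of 15, robust quasi-likelihood fit, no covariate, Benjamini-Hochberg threshold 0.05 over 14663 genes), which was also tested on simulated data. CPM are on TMM-scaled sizes. Alternatives were DESeq2 1.42.0, limma-voom (limma 3.58.1), RLE, upper quartile and library size scaling, 2 other filters, a replicate block, no robust estimation, and limma on log2(FPKM + 1) and log2(FPKM + 0.1), protein-coding genes alone, and leaving out each library. Exon overlaps came from GENCODE M21. Members and lists were chosen with earlier results of these data known. Every member could be named, with values in every library for 8 fixed genes (Hsf1, Hsp90aa1, Hsp90ab1, Hspa8, Hspa9, Hspd1, Hspe1 and Hspb1) and for up to 5 called members a family, and of the partner list for up to 6 called genes; values per library of other genes were chosen after they were seen. The values of 1 member and 1 marker are not reported here. Depth was 15464709 to 25129552 counts per library.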

Additional observations from a re-analysis of the deposited data

How the results depend on the processing

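The 3 lower (Hspb1, Hspa8, Hsph1) and 3 higher (Hspa9, Dnaja3, Dnaja4) members that kept their calls without each library also kept them under the 12 other settings tried. The log2 fold change of Hspb1 was -1.18 with limma on log2(FPKM + 1), where the pseudocount is large beside the level. Hspa12b was called in 7 of those 12 settings. Leaving out 1 library gave 1348 to 4682 called genes in all, 6 to 22 called members (3 to 7 higher, 3 to 15 lower) and 2 to 17 called partner genes (2 to 5 higher, 0 to 12 lower). The called partner genes were 11 (5 higher) with DESeq2 and 4 (1 lower) with no filter. With the replicate block 5 members were lower, and 3 partner genes were called, 1 of them lower. Replicate numbers do not pair the libraries by a stated day or culture, and the correlations of deviations between same-numbered libraries were 0.053, 0.023 and 0.027. The members not called under the block were Hsp90aa1 (edgeR adjusted p = 0.053), Hspb6 (0.051), Dnajc7 (0.074) and Hsp90ab1 (0.102), the last also with no filter (0.071). Of 25 named genes, 23 kept their direction in all settings. Leaving out 1 library gave Hspe1 values from -0.47 to 0.06 (0.01 and 0.06 without Bhlhe22 replicates 2 and 3) and Hspd1 values from -0.05, without Bhlhe22 replicate 1, to 0.12. The cause of these changes was not tested. Members with few counts, such as Hspa1a, were left out by the filter, and with no filter 80 members were tested.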
